A study of Mus musculus with 2 samples.

Results

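The 1601 replicated peaks of H3K27me3 on mouse chromosome 19 are described here. They are all the chromosome 19 rows of the authors' replicated peak list, which holds 38300 peaks in all. The assay was chromatin immunoprecipitation followed by sequencing, and the cells were MEL, an immortalized mouse erythroleukaemia line that the labels call an analog of the human leukaemia line K562. The single group has 2 biological replicates with no treatment, no other genotype and no second condition. Whether the replicates were separate cultures is not in the labels, and differences between them may be technical. All positions are on mm10 (GRCm38) unless stated otherwise.

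H3K27me3 is trimethylation of lysine 27 on histone H3, written by Polycomb repressive complex 2 through its EZH1 or EZH2 subunit. It is typically found over silent developmental genes and over CpG-rich promoters, and it can spread in broad domains across whole genes and the sequence between them. Proteins of Polycomb repressive complex 1 can read the mark and help to compact the chromatin.

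Few chromosome 19 peaks of any strength had their summit in a promoter (2.81% of all 1601), and most of the strongest also lay outside promoters. The sequences below come mostly from the strongest peaks of long domains. These peaks need not lie at the middle of their domain. A domain is a run of peaks joined where the gap between neighbours was at most 3 kb. Each of the first set is the 200 bp around the summit of the strongest peak of domains 1, 2, 4 and 5 in order of length, or of the strongest peak that stood alone. They are on the plus strand of the GRCm38 sequence, 5' to 3', in lower case with each CG dinucleotide in capitals.
Domain 1, intron of Gm960, chr19:4673991-4674190: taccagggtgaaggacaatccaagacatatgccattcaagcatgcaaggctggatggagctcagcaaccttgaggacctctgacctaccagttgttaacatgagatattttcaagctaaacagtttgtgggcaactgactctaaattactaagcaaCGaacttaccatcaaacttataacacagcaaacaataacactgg
Domain 2, nearest Lbx1, chr19:45282160-45282359: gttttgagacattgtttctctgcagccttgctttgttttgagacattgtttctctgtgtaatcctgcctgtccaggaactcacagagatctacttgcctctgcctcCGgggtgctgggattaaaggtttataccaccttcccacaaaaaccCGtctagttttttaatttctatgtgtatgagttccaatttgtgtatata
Domain 4, nearest Tlx1, chr19:45131552-45131751: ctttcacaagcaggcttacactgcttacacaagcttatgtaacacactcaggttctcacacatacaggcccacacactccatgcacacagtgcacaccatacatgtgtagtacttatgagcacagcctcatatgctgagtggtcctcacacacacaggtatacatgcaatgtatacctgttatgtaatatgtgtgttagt
Domain 5, nearest Scd1, chr19:44425432-44425631: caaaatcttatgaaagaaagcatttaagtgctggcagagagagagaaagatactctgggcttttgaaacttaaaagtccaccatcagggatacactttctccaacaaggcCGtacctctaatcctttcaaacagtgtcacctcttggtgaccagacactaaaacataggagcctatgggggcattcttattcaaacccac
Strongest lone peak, nearest Fbxw4, chr19:45673286-45673485: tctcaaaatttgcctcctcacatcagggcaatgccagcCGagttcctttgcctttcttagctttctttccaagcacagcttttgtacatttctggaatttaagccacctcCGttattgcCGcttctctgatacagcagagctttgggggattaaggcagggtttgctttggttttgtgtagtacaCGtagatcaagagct

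These 5 windows hold 1, 2, 0, 1 and 4 CG dinucleotides in the order printed, and their GC content is between 41.5% and 45.5%. Over all 1601 peaks, the 200 bp around the summit had a median GC content of 43.0%, against 42.5% over the 291024 tiles of 200 bp along the sequenced chromosome. The motif CG, which reads the same on both strands, occurred at least 1 time in 77.6% of the summit windows and in 73.7% of the tiles. Windows with 5 or more CG made up 6.31% of the summits and 8.76% of the tiles. The summit lay in soft-masked sequence, the repeats of the assembly, for 16.6% of the peaks, while 31.0% of the sequenced chromosome was soft-masked.

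3 promoters from the RefSeq table (GRCm38.p6), each from 250 bp before to 50 bp after the start, show how the peaks sat against gene starts. They are printed on the strand of the gene with CG in capitals.
Rln1, minus strand, chr19:29334621-29334920: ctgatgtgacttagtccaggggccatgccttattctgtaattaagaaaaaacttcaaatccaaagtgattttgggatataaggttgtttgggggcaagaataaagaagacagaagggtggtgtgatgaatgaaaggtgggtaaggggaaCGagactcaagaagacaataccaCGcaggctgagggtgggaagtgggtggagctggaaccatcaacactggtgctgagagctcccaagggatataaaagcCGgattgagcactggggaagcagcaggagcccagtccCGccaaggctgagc
Tdrd1, plus strand, chr19:56826025-56826324: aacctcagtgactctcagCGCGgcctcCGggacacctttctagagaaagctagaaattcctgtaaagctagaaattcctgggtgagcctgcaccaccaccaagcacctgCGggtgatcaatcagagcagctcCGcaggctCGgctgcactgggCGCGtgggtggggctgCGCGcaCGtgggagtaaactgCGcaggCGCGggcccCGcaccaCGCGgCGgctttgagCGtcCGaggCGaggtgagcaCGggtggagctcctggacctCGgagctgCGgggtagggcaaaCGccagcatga
Tlx1, plus strand, chr19:45150465-45150764: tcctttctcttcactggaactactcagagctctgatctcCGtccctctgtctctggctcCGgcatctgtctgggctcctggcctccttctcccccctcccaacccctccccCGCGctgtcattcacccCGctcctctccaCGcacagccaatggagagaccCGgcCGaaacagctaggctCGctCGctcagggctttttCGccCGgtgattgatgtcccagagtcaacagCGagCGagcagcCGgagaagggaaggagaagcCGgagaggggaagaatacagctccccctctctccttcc

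The promoter of Rln1, the gene of the pregnancy hormone relaxin, holds 4 CG, and replicated peaks covered all 300 of its bases. The promoter of Tdrd1, a Tudor-domain gene of the germ-line small RNA pathway, holds 25 CG. That of Tlx1, a homeobox gene needed for the spleen, holds 16 CG. Replicated peaks covered 0 bases of either of these CG-rich windows, although both genes lie beside or inside a domain longer than 10 kb. Of the RefSeq promoters of chromosome 19, 66.4% hold 5 or more CG, against 61.9% of the promoters of the whole table.

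Per the deposited text descriptions, each replicate has its own peak list, called against 1 control alignment that both share. Calling on the alignments of both gave a pooled list, and the replicated list is a selection made from these 3. On chromosome 19 replicate 1 had 3034 peaks, replicate 2 had 4386 and the pooled list had 2899, of which 55.2% were kept as replicated. Read depth is unknown, because the lists hold no read counts. Most peaks were weak: the deposited −log10 q reached 2 in 187 of the 1601 replicated peaks, or 11.7%, against 10.8% on the other chromosomes. Every result below is a description without a test, because there is 1 group and because peaks, bins and genes are not replicates.

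The peaks covered 536.3 kb, or 0.873% of chromosome 19, against 0.468% of the other chromosomes. They stood at 26.1 peaks per Mb, against 13.8 per Mb elsewhere. In replicate 1 the covered share was 1.13%, against 0.577% elsewhere, and in replicate 2 it was 1.60%, against 0.861%. Chromosome 19 came second of 21 chromosomes in both replicates' own lists and in the replicated list. The peaks themselves were of ordinary size, with a median width of 275 bp and a range of 150 to 2849 bp, against a median of 278 bp elsewhere. The median −log10 p was 4.08 on chromosome 19 and 3.95 elsewhere.

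Along the chromosome the peaks gathered in a few regions, and the 6 densest bins all began at 43 Mb or beyond. Of the 59 bins of 1 Mb that hold sequence, 8 together contained at least 50% of the covered bases, and 9 contained no replicated peak. The densest bin, 44 to 45 Mb, had 4.90% covered by replicated peaks, 6.06% by those of replicate 1 and 6.59% by those of replicate 2, while the median bin was covered over 0.418%. This bin holds the start of Pax2, a kidney and eye transcription factor, but no base within 5 kb of that start was covered in any of the 3 lists. The next bins in order began at 60, 43, 45, 56 and 55 Mb, with 4.02%, 3.89%, 3.59%, 3.24% and 2.89% covered. These 6 bins, the upper 10%, held 625 peaks and 42.0% of the covered bases. The bin at 4 to 5 Mb, near the other end of the sequence, came next with 2.80% covered. The upper 10% of replicate 1's own bins held 37.9% of its covered bases, and that of replicate 2 held 35.0%. The stretch from 42 to 46 Mb, the longest run of bins with over 2.5% covered, held 28.1% of the covered bases (25.3% in replicate 1 and 23.4% in replicate 2), and that from 55 to 61 Mb held 24.4% (23.3% and 23.9%). The last stretch was chosen after the values were seen.

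**Figure D1:**
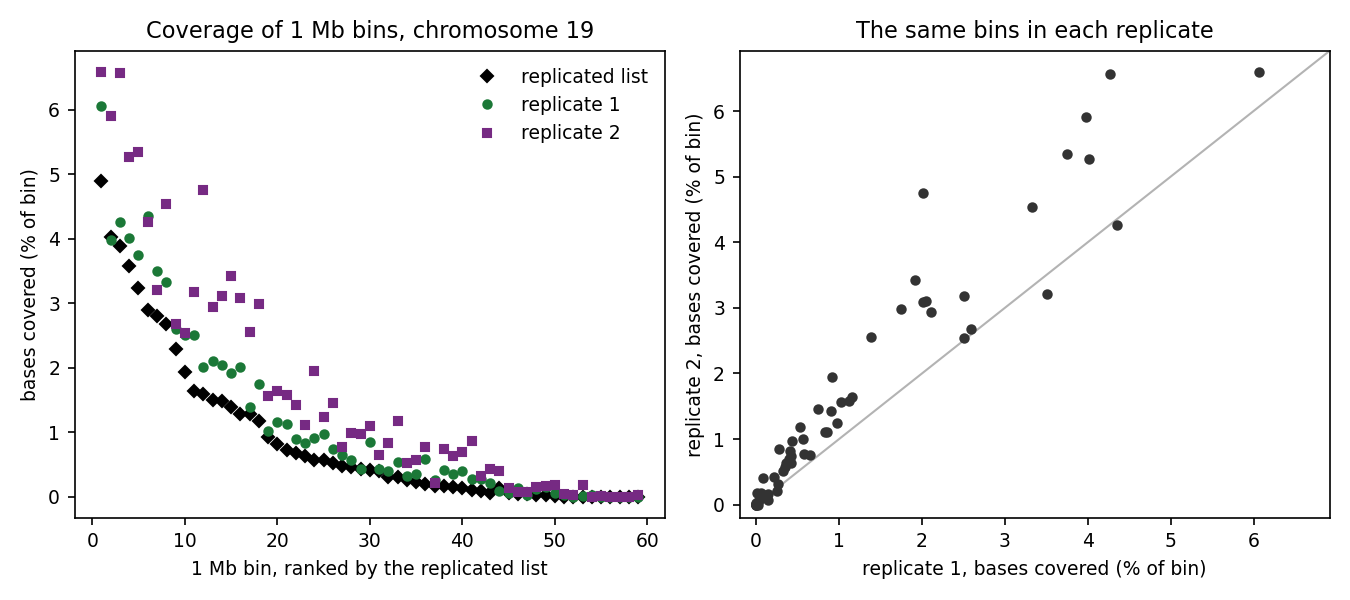
Share of bases covered in each of the 59 sequenced 1 Mb bins of chromosome 19. Left, bins ranked by the replicated list (x axis, rank; y axis, percent of the bin covered), with black diamonds for the replicated list, green circles for replicate 1 and purple squares for replicate 2. Right, replicate 2 against replicate 1 with the line of equality. The replicated list is at 4.90% in the densest bin and at 0 in 9 bins, and replicate 2 lies above replicate 1 in 51 bins.

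Both replicates placed their peaks in much the same bins. Of the 6 densest bins of replicate 1, 5 were also among the 6 densest of replicate 2. Of the 6 densest bins of the replicated list, 6 were among those of replicate 1 and 5 among those of replicate 2. The replicated list was derived from both, so its shared bins are no separate support. Across the 59 bins the covered share of replicate 1 and that of replicate 2 had a Pearson r of 0.958 and a Spearman rho of 0.979. The bins of both lists share the control alignment, the mappability of the sequence and the position along the chromosome. Replicate 2 was higher in 51 bins and replicate 1 in 5. The widest gap between replicates in any bin was at 59 to 60 Mb, in place 12 of the replicated list, where 4.76% was covered in replicate 2 and 2.02% in replicate 1. Among the 6 densest bins it was at 43 to 44 Mb, with 6.57% in replicate 2 and 4.26% in replicate 1. The bin at 4 to 5 Mb was one of the 5 in the other direction, with 3.21% in replicate 2 and 3.50% in replicate 1. Bin coverage had an r of 0.441 and a rho of 0.588 with GC content, and an r of 0.237 and a rho of 0.567 with the number of protein-coding genes, over the same 59 bins. The 6 densest bins had a median GC content of 45.8% and a median of 10.5 protein-coding genes, against 42.0% and 7 in the other 53 bins. Their median share of soft-masked bases was 28.6%, against 28.8%.

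The peaks also left long stretches empty. The longest ran for 5.20 Mb, from 47871267 to 53066497, and holds 8 protein-coding genes, among them Sorcs1 and Sorcs3, sorting receptors of neurons, and Ins1, one of the mouse insulin genes. Replicate 1 had 1 peak in it and replicate 2 had 8. The next, of 2.20 Mb (25240067 to 27436323), holds Dmrt1, Dmrt2 and Dmrt3, a cluster of sexual development and patterning genes. There replicate 1 had 2 peaks and replicate 2 had 16. A stretch of 1.85 Mb (12754654 to 14607461) holds 47 genes, most of them olfactory receptors, with 4 peaks in replicate 1 and 10 in replicate 2. Another of 1.69 Mb (38832926 to 40522626) spans the Cyp2c cluster of liver drug-metabolizing enzymes, with 3 peaks in replicate 1 and 1 in replicate 2. The absence of a peak does not show the absence of the mark. These stretches were singled out for their length after the values were seen.

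Joining peaks within 3 kb gave 609 domains. The median gap between neighbouring peaks was 1352 bp, and 62.0% of gaps were at most 3 kb. Of the domains, 301 were lone peaks (49.4%, against 51.7% of all domains genome-wide), and 20 reached 10 kb (3.28%, against 3.49% genome-wide). These 20 long domains held 302 peaks, or 18.9%, and 23.6% of the covered bases. Replicate 1's own peaks formed 40 such domains and those of replicate 2 formed 71. Each of the 20 overlapped a domain of 10 kb or more in replicate 1, and 18 did so in replicate 2. The replicated peaks were derived from both own lists, which hold more peaks, so these overlaps are no separate support. Of the 20, 10 lay between 42 and 46 Mb and 6 between 55 and 61 Mb.

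Overlap of the long domains with protein-coding genes was counted next. Of the 20, 13 overlapped no protein-coding gene, as did 8 of the 10 longest. The same count was not made over all domains. By a different measure, sequence outside protein-coding genes held 61.1% of all chromosome 19 summits and makes up 50.1% of its sequence. The 13 are therefore not shown to be a trait of long domains. The nearest genes of those 8 fall outside the rule for naming genes and are named because of where the domains lie. The longest, of 33646 bp (4668785 to 4702430, 37 peaks), was an exception: it covers the start and the 5' part of Gm960, a predicted gene on the minus strand. Peaks covered 45.9% of it, with 49.2% in replicate 1 and 40.0% in replicate 2. The next, of 26163 bp (45257096 to 45283258), lay 21283 bp from Lbx1, a homeobox gene of migrating limb muscle precursors and spinal cord neurons. Domain 4, of 22244 bp (45126299 to 45148542), ended 2137 bp before the start of Tlx1. Domain 3 (43535138 to 43557712) lay 10532 bp from Got1, a housekeeping aminotransferase, and overlapped the non-coding genes AC138790.3 and AC138790.2. Domain 5 (44420944 to 44438224) lay 13064 bp from Scd1, a stearoyl-CoA desaturase, and overlapped the non-coding gene AC151478.3. It was the most thinly covered of the 20, at 17.5%. Domain 6 (44896220 to 44913039) lay 18111 bp from Slf2, a genome stability factor, and 58348 bp from Pax2.

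Domain 7 (29906510 to 29922230) ended 2883 bp before Il33, a cytokine of barrier tissues. Domain 9 (43390375 to 43404736) lay 2019 bp upstream of Hpse2, a heparanase-like gene. Domain 10 (36542559 to 36556900) covers the start of Hectd2, a ubiquitin ligase gene. The most densely covered of the 20 was the 11132 bp domain over Rln1 (29329075 to 29340206), at 63.4%, with 51.3% in replicate 1 and 68.3% in replicate 2. Across the 20, replicate 2 covered more of the domain in 15 and replicate 1 in 5.

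**Figure D2:**
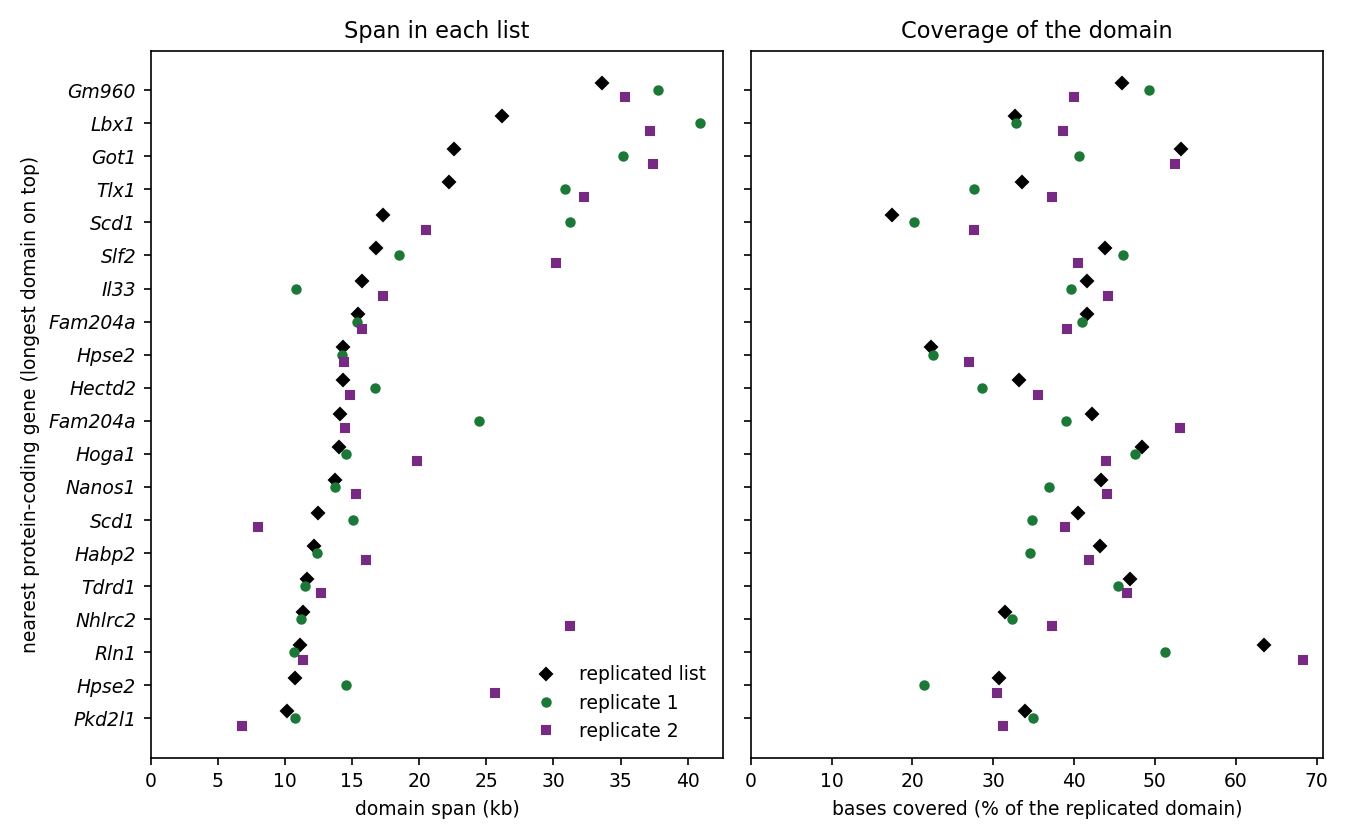
The 20 chromosome 19 domains of 10 kb or more, longest on top, each row named by its nearest protein-coding gene. Left, span in kb of the domain in the replicated list (black diamonds) and of the longest overlapping domain of replicate 1 (green circles) and of replicate 2 (purple squares). Right, percent of the bases of the replicated domain covered in each list. The replicated spans run from 10133 to 33646 bp and the covered shares from 17.5% near Scd1 to 63.4% at Rln1.

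Few gene starts carried a peak. Of the 718 protein-coding genes of chromosome 19, 19 carried a replicated peak at most 1 kb from the outermost annotated start (2.65%, against 3.0% of all genes genome-wide). In replicate 1's own list there were 37 (5.15%, against 4.46%), and in replicate 2's there were 46 (6.41%, against 6.28%). Both replicates' own lists shared 21 such genes. Of the 19, 13 also had a start peak in both own lists, 4 in replicate 2's alone and 2 in replicate 1's alone. Counting any annotated transcript start in place of the outermost one gave 36 genes. The covered bases in the 2 kb window ranged from 23 to 1676 bp with a median of 311 bp, and in 5 genes they reached 500 bp. With peaks of −log10 q of 2 or more alone, 4 genes had a start peak, 1 gene had 10% of its body covered and 1 domain reached 10 kb.

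Within 5 kb of the start the count was 93 genes (13.0%, against 10.4% genome-wide), and the amount of covered sequence differed widely among them. Rln1 had the most, with 6439 bp in the replicated list, 5572 bp by replicate 1's peaks and 6972 bp by those of replicate 2. Gm960 followed with 4308 bp, 4505 bp and 3963 bp in the same order. Tdrd1 had 3815 bp in the replicated list, 4091 bp by replicate 1's peaks and 4128 bp by those of replicate 2. For Hectd2 the figures were 3788 bp, 3846 bp and 3240 bp. These 4 genes stood above the rest in all 3 lists. Rbm20, a splicing factor of the heart, had 2689 bp in the replicated list, with 2109 and 2364 bp in replicates 1 and 2, although the nearest 1 kb on either side of its start was free of replicated peaks. Clcf1, a cytokine that acts on neurons and B cells, had 2660 bp, with 2946 bp in replicate 1 and 2152 bp in replicate 2. The same bases count for AC109138.7, an annotated gene that overlaps Clcf1 on the same strand.

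The rest of the 15 genes with the most covered bases near the start had 2100 bp or fewer. Add3, an adducin of the membrane skeleton, had 2100 bp in the replicated list, 1917 bp by replicate 1's peaks and 1908 bp by those of replicate 2. Slc22a6, the kidney's organic anion transporter, had 1969 bp, 1896 bp and 1536 bp. Cpn1, the catalytic subunit of carboxypeptidase N, a plasma enzyme made in liver, had 1627 bp in the replicated list, 1311 bp by replicate 1's peaks and 2065 bp by those of replicate 2. The remaining genes of this rank were 4933411K16Rik, Hpse2, Calhm3, Tlx1 and Pga5, with 1318 to 1776 bp. Tlx1 was the one most unlike between replicates, with 525 bp in replicate 1 and 1530 bp in replicate 2. Pga5, a pepsinogen gene, went the other way, with 1329 bp in replicate 1 and 712 bp in replicate 2.

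**Figure D3:**
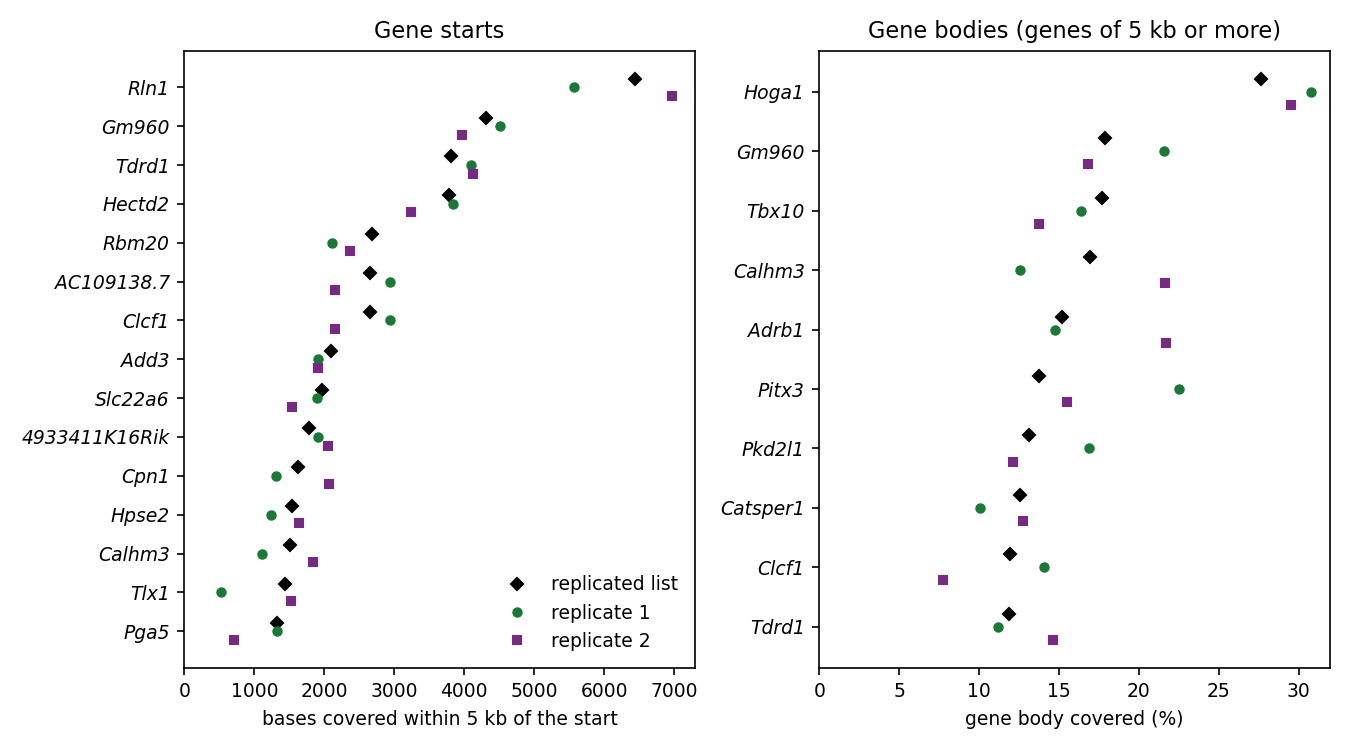
Chromosome 19 protein-coding genes with the most covered sequence. Left, covered bases in the 5 kb on either side of the start for the 15 genes with the most; right, percent of the gene body covered for the 10 genes of 5 kb or more with the largest share. Black diamonds are the replicated list, green circles replicate 1 and purple squares replicate 2. Rln1 stands highest at the start with 6439 bp and Hoga1 highest over the body with 27.7%.

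Over gene bodies, 104 genes had at least 1 covered base (14.5%, against 11.5% genome-wide), and 88 of these had no peak within 1 kb of the start. At least 10% of the body was covered in 14 genes (1.95%, against 2.03% genome-wide). Replicate 1's own list gave 25 (3.48%, against 2.32%) and so did replicate 2's (3.48%, against 3.56%), and 11 of the 14 reached 10% in both own lists. Of the 14 genes, 7 also had a start peak. Rln1, a gene of 3501 bp, was covered over 94.9% of its body, with 83.6% in replicate 1 and 95.1% in replicate 2. Among genes of 5 kb or more, Hoga1, a mitochondrial aldolase of hydroxyproline breakdown, came highest with 27.7%, and with 30.8% in replicate 1 and 29.5% in replicate 2. Its start carried no peak within 1 kb.

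Adrb1, the beta-1 adrenergic receptor of the heart, was covered over 15.2% in the replicated list, 14.8% by replicate 1's peaks and 21.7% by those of replicate 2. Pitx3, a homeobox gene of the lens and of dopamine neurons, had 13.7%, with 22.5% in replicate 1 and 15.5% in replicate 2. Catsper1, a calcium channel subunit of sperm, had 12.6%, with 10.1% and 12.8% in replicates 1 and 2. Tbx10, a T-box gene, had 17.7% and Calhm3, a channel of taste cells, 16.9%. Pkd2l1, a polycystin-family channel, had 13.1%, and Gm960, Clcf1 and Tdrd1 had 17.9%, 12.0% and 11.9%.

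Few starts in the densest bins carried a peak. In the 6 densest bins, 2 of 72 genes had a start peak (2.78%), namely Cpn1 and Tdrd1, against 17 of 646 in the other bins (2.63%). The 5 kb windows gave 15 of 72 (20.8%), against 78 of 646 (12.1%), and any covered body base gave 17 of 72 (23.6%), against 87 of 646 (13.5%). Body coverage of 10% was found in 3 of 72 genes (4.17%), against 11 of 646 (1.70%). The densest bins were chosen by the coverage of these same peaks. Higher shares of their genes with covered bases nearby or in the body follow largely from that choice.

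Around the average start, coverage was lowest at the start itself. The 500 bp after the start were covered over 0.594% on chromosome 19 and 0.497% on other chromosomes. The 500 bp from 5.5 to 5.0 kb before the start were covered over 1.72% on chromosome 19 and 1.32% elsewhere. Summits told the same by class: 45 of the 1601 fell within a promoter (2.81%), against 4.08% of summits elsewhere, while promoters make up 5.28% of the sequenced chromosome. Introns held 33.9% of the summits, against 35.8% elsewhere and 41.0% of the chromosome's sequence. Sequence outside protein-coding genes held 61.1%, against 57.4% elsewhere and 50.1% of the chromosome's sequence. In the replicates' own chromosome 19 lists the promoter class held 3.20% in replicate 1 and 3.28% in replicate 2.

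**Figure D4:**
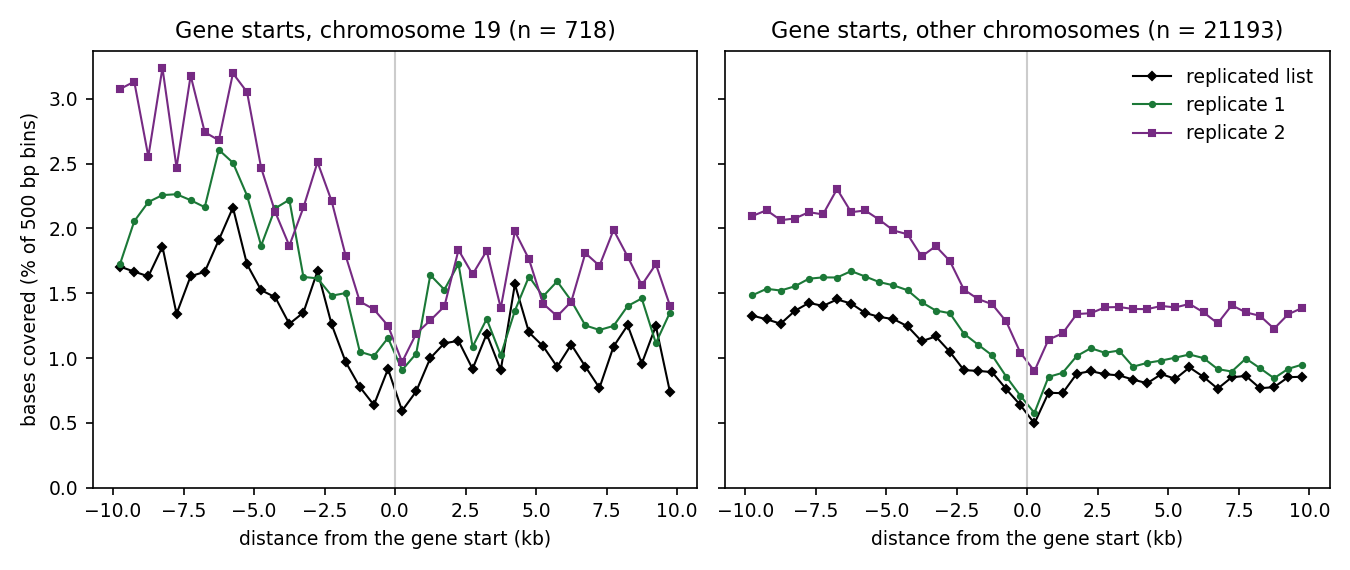
Covered share around protein-coding gene starts in bins of 500 bp from 10 kb before to 10 kb after the start (x axis, distance in kb; y axis, percent of bases covered over all genes). Left, the 718 genes of chromosome 19; right, the 21193 genes of other chromosomes. Black diamonds are the replicated list, green circles replicate 1 and purple squares replicate 2. Just after the start the replicated list is at 0.594% on chromosome 19 and 0.497% elsewhere, the lowest values of both curves.

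Gene families of the chromosome were then counted. Start peaks were rare over all 718 genes, at 2.65%, or 5.15% by replicate 1's peaks and 6.41% by those of replicate 2. At such shares, a start count of 0 in a small family or list does not show a lack of start peaks. Of 63 olfactory receptor genes, which encode odorant receptors of the nose, 1 had a replicated start peak (Olfr1426), with 5 in replicate 1 and 5 in replicate 2, and their median distance to a long domain was 8358 kb, against 1702 kb over all 718 genes. Of 19 Ms4a genes, membrane proteins of immune cells, 0 had one, with 0 in replicate 1 and 3 in replicate 2. The 18 cytochrome P450 genes had 0 in all 3 lists, and 0 with a replicated peak as near as 5 kb. None of 9 acid lipase genes and none of 3 pancreatic lipase genes had one either. Of the 10 Slc22a transporters, Slc22a6 had a start peak in the replicated list, with 1 in replicate 1 and 0 in replicate 2. The hormone genes Rln1 and Insl6 both had peaks within 5 kb, of which Insl6 had 163 bp.

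Homeobox genes were taken next. Of the 7 on the chromosome, 0 carried a start peak in the replicated list, 0 in that of replicate 1 and 1 in that of replicate 2, and 4 had a replicated peak within 5 kb (Tlx1, Pitx3, Nkx2-3 and Lbx1), against 93 of all 718 genes (13.0%, and 10.4% genome-wide). Tlx1 had 1433 bp, Pitx3 599 bp, Nkx2-3, a gene of spleen and gut development, 483 bp and Lbx1 214 bp. Of the 7, 3 lay within 100 kb of a long domain (42.9%), as did 62 of the 718 genes (8.64%). Tlx1 and Lbx1 lie near each other on the chromosome, so the 3 are not independent counts. The 13 other developmental transcription factors had 0 start peaks in all 3 lists and 2 genes with a peak within 5 kb. The 15 genes of Wnt, Fgf, Notch and guidance signalling had 0 start peaks in the replicated list and in that of replicate 1, and 3 in that of replicate 2. Within 5 kb, 3 of them had a replicated peak, among them Wnt8b and Slit1. The 4 retinoid genes had 0 of both kinds.

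The list of lymphoid genes had replicated peaks within 5 kb of the start in 6 of 18 (Cd5, Cd6, Il33, Entpd1, Dntt and Pik3ap1), against 13.0% of all 718 genes. Il33 is counted on this list although it is a cytokine of barrier tissues. Of these 18, Il33 alone had a replicated start peak, which reached only 23 bp into the 2 kb start window. Start peaks of the list numbered 2 in replicate 1 and 1 in replicate 2. The ion channel list had 4 of 13 within 5 kb, against 13.0% of all 718 genes, and 1 replicated start peak, at Calhm3 (2.65% of all 718), with 3 start peaks in replicate 1 and 2 in replicate 2. Of 8 desaturase and elongase genes, 4 lay within 100 kb of a long domain, against 8.64% of all 718 genes. The replicated list had 0 start peaks among them, replicate 1 had 1 and replicate 2 had 0. Members such as Scd1 and Scd4 are neighbours near the same long domain, so the 4 are not independent counts. The 7 other G-protein-coupled receptors had 1 with a peak within 5 kb, Adrb1, and the 9 growth control genes had 1, Mxi1. The 23 housekeeping genes had 0 replicated peaks within 5 kb of the start, and 0 start peaks in either replicate. The 6 interferon-induced genes had 0 in the replicated list, with 2 start peaks in each replicate, and the 8 adhesion genes had 0. Over each of these lists but the relaxin pair and the homeobox genes the median covered length within 5 kb was 0 bp, as it was over all 718 genes.

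Starts of long non-coding genes on chromosome 19 carried replicated peaks in 9 of 254 cases (3.54%, against 2.83% of all 10143 such genes). The antisense gene Gm47938 had 800 bp of its 2 kb start window covered in the replicated list, 842 bp by replicate 1's peaks and 842 bp by those of replicate 2. Gm28351, a lincRNA gene inside the domain near Fam204a, had 4846 bp covered within 5 kb of its start, with 4415 bp in replicate 1 and 4599 bp in replicate 2. The known nuclear RNAs Neat1 and Malat1 and the snoRNA host Snhg1 had 0 start peaks in the replicated list and in both own lists. Peaks have no strand, so a peak over a start is shared with any gene that overlaps it.

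Many starts were covered in the own list of 1 replicate only: 16 genes in replicate 1 and 25 in replicate 2, against 21 in both. The 5 of highest signal value, the authors' score for the peak, were Olfr1420, Olfr1443, Plpp6, Slc22a6 and Zp1, with Dntt tied with Slc22a6 and Zp1 at a signal value of 4.51. Olfr1420 had 790 bp of its 2 kb start window covered in replicate 1 and none in replicate 2. Plpp6, a phosphatase of isoprenoid lipids, had 669 bp in replicate 2 and none in replicate 1. Zp1, a protein of the egg coat, had 240 bp in replicate 1 and none in replicate 2. Within 5 kb of the start, both replicates had peaks at 4 of the 5, Olfr1443 being the exception.

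Agreement with the replicates' own lists was close to the rest of the genome. Of the 1601 peaks, 1173 overlapped a peak of each replicate's own list by at least 1 bp (73.3%, exact Clopper-Pearson 95% interval 71.0 to 75.4, against 72.4% of all replicated peaks). The interval covers counting error only and treats peaks as independent, which neighbours in a domain are not. Another 269 overlapped a peak of replicate 2 alone (16.8%, against 17.7% elsewhere), 153 a peak of replicate 1 alone (9.56%, against 9.50%) and 6 neither. Since the replicated list was derived from both, this share is no separate support for the peaks. Most of the replicates' own chromosome 19 peaks had no partner: a partner in the other replicate was found for 45.0% of the peaks of replicate 1, against 44.9% elsewhere, and for 31.3% of those of replicate 2, against 29.7% elsewhere. Of the bases covered in either replicate, 16.0% were covered in both, against 15.8% elsewhere.

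Agreement was higher among stronger peaks and in longer domains. In the weakest 25% of the peaks by −log10 p, 57.4% overlapped both own lists, then 66.5% and 78.0% in the next groups, and 91.25% in the strongest 25%. Peaks in domains of 10 kb or more reached 86.8%, those of shorter domains 72.1% and lone peaks 63.5%. Their median −log10 p was 4.60, 3.98 and 3.58 in the same order, so strength moved with domain length. Median width moved too, at 321, 273 and 253 bp in that order. It was 246 bp in the weakest 25% of the peaks and 373 bp in the strongest. The parts of strength and width in the agreement were not tested. Peaks in the 6 densest bins reached 78.1%, against 70.2% in the other bins. The 187 peaks with a −log10 q of 2 or more reached 95.2%. At the 1173 peaks found in both, the signal values of the replicates had an r of 0.209 and a rho of 0.191, and the median summit shift from the replicated peak was 39 bp in each.

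**Figure D5:**
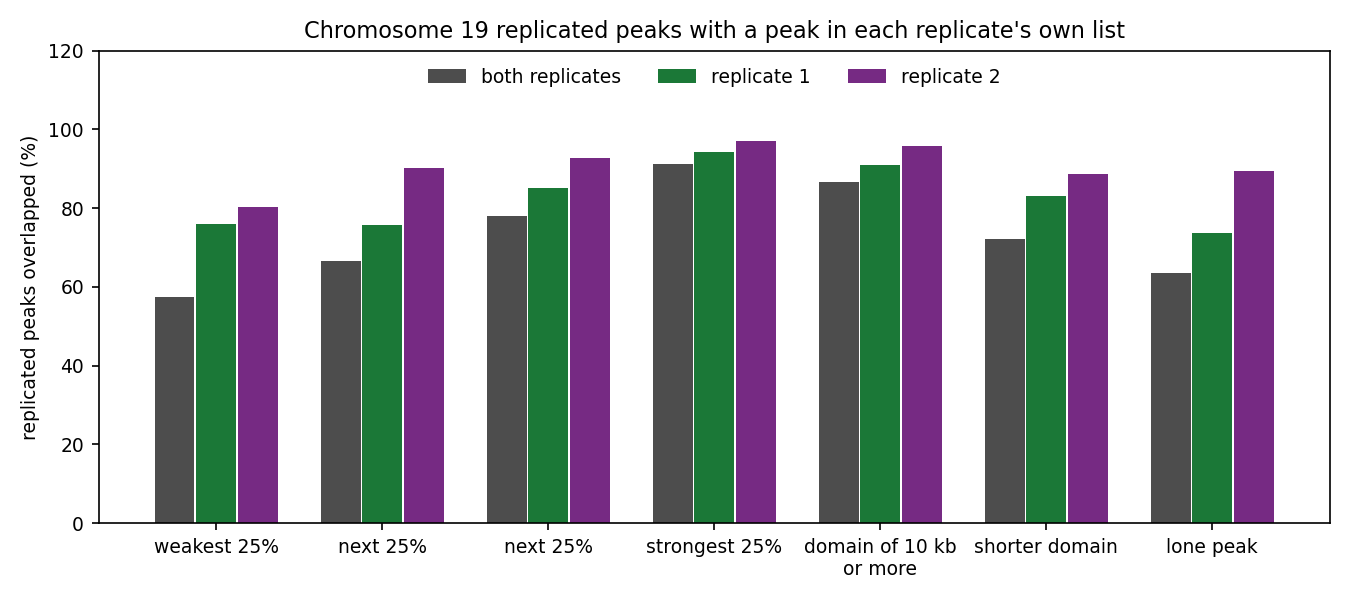
Percent of chromosome 19 replicated peaks that overlap a peak in the own list of both replicates (grey), of replicate 1 (green) and of replicate 2 (purple), by at least 1 bp. Peaks are split by −log10 p into 4 groups of 25% each, weakest on the left, and then by the kind of domain. The share found in both is 57.4% in the weakest group and 91.25% in the strongest.

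The single strongest peaks were looked at as well. The strongest by −log10 p (12.5) was a 197 bp peak in an intron of Clcf1 (4215627 to 4215823), in place 17 among all replicated peaks of the genome. The next, at 10.5, was an 817 bp peak in an intron of Gpam (55108822 to 55109638), the enzyme that starts triacylglycerol synthesis. An 895 bp peak in Gm960 (10.3) and an 898 bp peak in the promoter of Hectd2 (9.32) followed. All 10 of the strongest peaks overlapped peaks in both own lists, as did 95.2% of the 187 peaks with a −log10 q of 2 or more. The replicated list was derived from both own lists, so this overlap is no separate support. Of the 10, 1 had its summit in a promoter, against 2.81% of all 1601 peaks.

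Chromosomes 11, 15 and 9, the other chromosomes among the 4 with the highest covered share, were set beside chromosome 19. Chromosome 19, with 0.873% covered, had start peaks at 2.65% of its genes, against 6.54% on chromosome 11 (1.86% covered), 5.48% on chromosome 15 (0.841%) and 4.46% on chromosome 9 (0.815%). Genes with 10% of the body covered made up 1.95% on chromosome 19, against 6.60%, 4.08% and 3.14% on chromosomes 11, 15 and 9. The upper 10% of bins held 42.0% of the covered bases on chromosome 19, against 44.3%, 62.6% and 57.3%. Domains of 10 kb or more stood at 3.26 per 10 Mb on chromosome 19, against 10.1, 3.08 and 3.53. None of these differences was tested. In the replicates' own lists the start share of chromosome 19 lay above that of all genes, as given above.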

How the data were processed

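The deposited peak lists of both MEL replicates were used: each replicate's own list, the pooled list and the replicated list on mm10, and a list on mm9. Per the deposited text descriptions, each own list was called on that replicate's alignments against 1 shared control alignment. The aligner, the caller and the rule that kept replicated peaks are likewise not given in the sources used here. The deposited signal value is an undefined score. Beside it stand the deposited −log10 p-value and −log10 q-value of every peak. No read counts are in the lists, so the depth behind a peak is unknown and weak peaks cannot be weighed by reads.

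Chromosome 19 rows of the replicated list were taken as members. Covered length was the union of peaks, bins were of 1 Mb, peaks within 3 kb were joined, and overlaps needed 1 bp. Genes were GENCODE mouse release 21 protein-coding genes with outermost starts; a start peak lay within 1 kb. Summits took the class promoter, exon, intron or intergenic in that order, where intergenic sequence can lie inside a non-coding gene. No coordinate was converted between mm9 and mm10. The sequence of 1 window is not reported here. The members and gene lists were chosen with earlier results of these data known.

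Named genes overlap one of the 10 longest domains, are among the 15 with most covered bases within 5 kb of the start or the 10 with the largest body share (5 kb or more), lie with a start peak in the 5 densest bins, are start-marked list members (up to 4 a list), or are the 5 of highest signal value marked in 1 replicate only. Unmarked list members may be named. Alternatives used stricter peaks (−log10 q of at least 2, or the upper 50% by signal value), the pooled list or one replicate's own list, and other bins, joining distances, windows, starts, body shares and overlaps. Code was tested on simulated intervals. Python 3.11.15, numpy 2.4.6, pandas 2.3.3, scipy 1.17.1 and matplotlib 3.10.9 were used.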

Additional observations from a re-analysis of the deposited data

How the results depend on the processing

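Of 38 alternative values for 6 results, 37 moved by the rule for their kind. Counts had to change by over 1.5 times, and the share in both lists had to pass its 95% binomial interval. The covered share and the bin share had to move by more than a spread between the replicates. For the covered share, that spread was smaller than the full difference between the replicates. Beyond the construction of each setting, the cause of the moves was not tested. Requiring a −log10 q of at least 2 gave a covered share of 0.159%, 56.1% of covered bases in the upper 10% of bins, 1 domain of 10 kb or more, 4 genes with a start peak, 1 gene with 10% of its body covered and 95.2% of peaks found in both own lists. The upper 50% by signal value gave 0.515%, 47.6%, 8 domains, 12 start genes, 5 body genes and 83.4%. The pooled list gave 1.28%, 37.7%, 43 domains, 40 start genes, 25 body genes and 42.6%. Leaving out either replicate, so that the other's own list was used, gave covered shares of 1.13% to 1.60%, bin shares of 35.0% to 37.9%, 40 to 71 domains, 37 to 46 start genes and 25 body genes each time. Bins of 0.5 Mb gave 45.9% and bins of 2 Mb 36.5%. Joining within 1 kb left 1 long domain and joining within 10 kb gave 84. Start windows of 2.5 kb gave 44 genes, at least 500 bp of the window covered gave 5, and any transcript start gave 36. Body thresholds of 25% and 5% gave 2 and 31 genes. Requiring 50% of the peak to be covered by each own list gave 54.5%. No paired analysis was possible because the design has 1 group. The counts of genes and long domains therefore rest on the peak list and thresholds used. So does the share of covered bases in the upper 10% of bins, which moved in every alternative and lay between 35.0% and 56.1%. Bins ranked by coverage hold more than 10% by construction unless coverage is even.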

Other observations

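The list on mm9, whose making is not stated, held 1684 chromosome 19 peaks covering 414.4 kb, all with a −log10 q of 2 or more. Its strongest peak reached a −log10 p of 99.2 over 7205 bp (mm9, 29404959 to 29412163), and the next strongest reached 40.8. The strongest chromosome 19 peak of the replicated list reached 12.5 and the longest measured 2849 bp. In its own coordinates the mm9 list was densest in the bins at 30 and 29 Mb, with 42807 and 35438 bp covered, and all of the 42807 bp lay in the 200 kb from 30000001 to 30200000. The mm10 bins of the same numbers held 1715 and 22962 bp in the replicated list, but positions were not converted between builds. The 6 densest mm9 bins held 40.9% of its covered bases.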
